A study of Mus musculus with 4 samples.

Results

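Mouse bone marrow-derived dendritic cells given CAF.CM with an antibody to Wnt2 were set against the same kind of cells in control medium. CAF is the usual abbreviation for a cancer-associated fibroblast, and CM is read here as medium taken from cultures of such cells. The comparison asks what is left of the response to the medium when the Wnt2 antibody is present. No deposited table holds both libraries, so the genes were joined by identifier and symbol between the table with the control library and the table with the antibody library. The join held 12848 of the 13685 genes listed in any table, and every ratio below is the antibody library over the control library unless another pair is named.

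All 4 groups were bone marrow cells of C57BL/6 mice aged 4 weeks, cultured for 7 days with IL-4 and GM-CSF at 10 ng/ml each. The first group stayed in control medium, the second received Wnt2, the third received CAF.CM, and the fourth received CAF.CM that had been mixed with the Wnt2 antibody beforehand. The 4 samples hold no group with the antibody in control medium and none with a control antibody in CAF.CM, so an effect of the antibody protein itself cannot be told apart from one on Wnt2. The series text speaks of triplicates, while each group has 1 column of values, and the sources used here do not say whether a column pools several cultures. Columns are called libraries below. With 1 library per group no difference has a replicate check, and no p-value is given.

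The libraries differed in depth. Listed genes held 143071376 reads in control medium, 154399767 with Wnt2, 25225220 in CAF.CM and 22791494 with CAF.CM plus antibody, which is 15.9% of the control depth. Both libraries with CAF.CM were shallow and those without it deep, so depth and CAF.CM cannot be told apart in ratios to control. One read was worth 0.00707 CPM (the reads of a gene scaled to library size) in the control library and 0.0431 CPM in the antibody library. Intervals are exact conditional binomial 95% intervals of the log2 ratio and cover counting error only. Higher and lower, said of a gene, mean a difference of 2-fold or more, with no test behind it.

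Cells with the label were checked against marker genes. In control medium the dendritic cell gene Itgax, which encodes CD11c, stood at 888 CPM and the MHC class II chain gene H2-Ab1 at 489 CPM. The lysozyme gene Lyz2, a marker of macrophages and monocytes, stood at 25764 CPM, and the 18 macrophage and monocyte markers summed to 30701 CPM against 4024 CPM for 14 conventional dendritic cell markers. Both marker sets were therefore present in the culture. Of 10 T cell markers 5 were listed in no table, Cd3e among them, and of 9 epithelial and endothelial markers 5, Epcam among them. Other members were present in control medium, such as Il7r of the T cell list at 213 CPM. Cdh1 and Vwf of the epithelial and endothelial list stood at 52.0 and 66.7 CPM.

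Interferons are secreted proteins that signal through JAK kinases and STAT transcription factors. Type I interferon acts mainly through a DNA element called the ISRE, which a complex with STAT2 and IRF9 binds, and interferon-gamma mainly through an element called GAS. The genes switched on in this way encode antiviral proteins, guanylate-binding GTPases and the antigen presentation machinery. NF-kappaB, a second transcription factor family of activated dendritic cells, drives cytokines, chemokines and acute phase proteins. Wnt2 is a secreted ligand of Frizzled receptors, whose canonical pathway stabilises beta-catenin.

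Promoter sequence upstream of 5 members of these groups is printed to show motif matches among genes that lay near control with the antibody (Irgm2 and Gbp3) and genes that stayed high (Rsad2, Bst2 and Cxcl1). They were chosen after their values were seen. Each is the 250 bases before a RefSeq start on the gene's strand, build GRCm38.p6, 5′ to 3′. Capitals mark every match on either strand of 3 motifs, which are GAAA, any 2 bases and GAAA (ISRE-like), TTC, any 3 bases and GAA (GAS-like), and GGGA, any 4 bases and CC (kappaB-like). The first 4 windows hold ISRE-like matches, Irgm2 and Bst2 also 1 GAS-like match each, Rsad2 also 1 kappaB-like match, and Cxcl1 holds 3 kappaB-like matches. Gbp3 has a second RefSeq window, chr3:142560106-142560355 on the plus strand, which held 0 matches of the 3 motifs and is not printed. Overlapping and neighbouring matches run together. The 250-base windows of Irf7, Oasl1 and Ifit2 held 0 ISRE-like matches, and those of Lcn2 and Ptgs2 held 0 kappaB-like matches. The windows are chr11:58214727-58214976 on the plus strand for Irgm2, chr3:142559794-142560043 on the plus strand for Gbp3, chr12:26456453-26456702 on the minus strand for Rsad2, chr8:71537473-71537722 on the minus strand for Bst2 and chr5:90890995-90891244 on the plus strand for Cxcl1.
Irgm2: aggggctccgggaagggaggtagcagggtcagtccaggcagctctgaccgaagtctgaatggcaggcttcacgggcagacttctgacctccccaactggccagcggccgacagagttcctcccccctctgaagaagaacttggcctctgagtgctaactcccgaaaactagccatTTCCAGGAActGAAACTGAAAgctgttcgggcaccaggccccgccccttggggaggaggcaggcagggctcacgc
Gbp3: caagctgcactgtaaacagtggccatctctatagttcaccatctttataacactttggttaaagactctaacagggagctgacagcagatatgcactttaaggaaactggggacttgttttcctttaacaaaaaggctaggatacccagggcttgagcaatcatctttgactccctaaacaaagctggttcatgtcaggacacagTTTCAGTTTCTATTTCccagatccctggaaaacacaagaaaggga
Rsad2: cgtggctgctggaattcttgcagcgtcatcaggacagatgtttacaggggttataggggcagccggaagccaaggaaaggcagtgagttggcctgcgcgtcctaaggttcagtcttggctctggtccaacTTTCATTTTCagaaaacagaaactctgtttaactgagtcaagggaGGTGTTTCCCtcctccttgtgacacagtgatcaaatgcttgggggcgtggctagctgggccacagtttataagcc
Bst2: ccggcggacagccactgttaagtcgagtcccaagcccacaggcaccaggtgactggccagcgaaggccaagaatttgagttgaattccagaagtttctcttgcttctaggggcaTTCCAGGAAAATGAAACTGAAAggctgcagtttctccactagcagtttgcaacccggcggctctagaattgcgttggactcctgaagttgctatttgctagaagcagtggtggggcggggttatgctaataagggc
Cxcl1: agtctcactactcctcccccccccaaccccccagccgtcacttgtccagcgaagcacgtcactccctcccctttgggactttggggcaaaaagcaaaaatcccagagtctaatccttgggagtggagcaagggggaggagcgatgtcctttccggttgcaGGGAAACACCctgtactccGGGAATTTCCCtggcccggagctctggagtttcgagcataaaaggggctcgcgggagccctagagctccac

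RefSeq promoter windows of 300 bases (250 before to 50 after the start) matched 9108 of 12822 joined symbols. The ISRE-like motif was in 13 of 24 windows (54.2%) of the interferon-stimulated list, against 3.35% of the windows of all joined genes and 3.44% of all windows in the table. The 24 windows covered 21 of the 30 list members. Members were chosen as interferon-stimulated, so the share of the list follows from that choice and says nothing of these libraries. Genes higher with the antibody than in control medium held it in 5.26% of their windows and genes lower in 3.30%, and genes higher in CAF.CM than in control medium held it in 8.99%. The GAS-like motif was in 5.26%, 7.12% and 6.71% of these 3 sets, with 6.95% over all joined genes. The kappaB-like motif was common, in 28.5%, 27.3% and 27.3%, against 26.1%. These shares describe letters in the windows and say nothing of binding.

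Over the 12848 joined genes, 1036 were at least 2-fold higher with CAF.CM plus antibody than in control medium (8.06%) and 1622 were at least 2-fold lower (12.6%). The median log2 ratio was -0.06, and 7541 genes (58.7%) lay within 1.5-fold of control. On the same genes CAF.CM alone against the same control library gave 891 higher (6.93%), 832 lower (6.48%) and a median of -0.02. Wnt2 against control gave 308 higher (2.47%), 292 lower (2.34%) and a median of -0.02 over the 12473 of them that its table lists. The antibody library against the CAF.CM library gave 73 higher (0.568%), 477 lower (3.71%) and a median of -0.04. These comparisons share the control or the CAF.CM library, so their values are set side by side and no overlap between them is given.

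**Figure D1:**
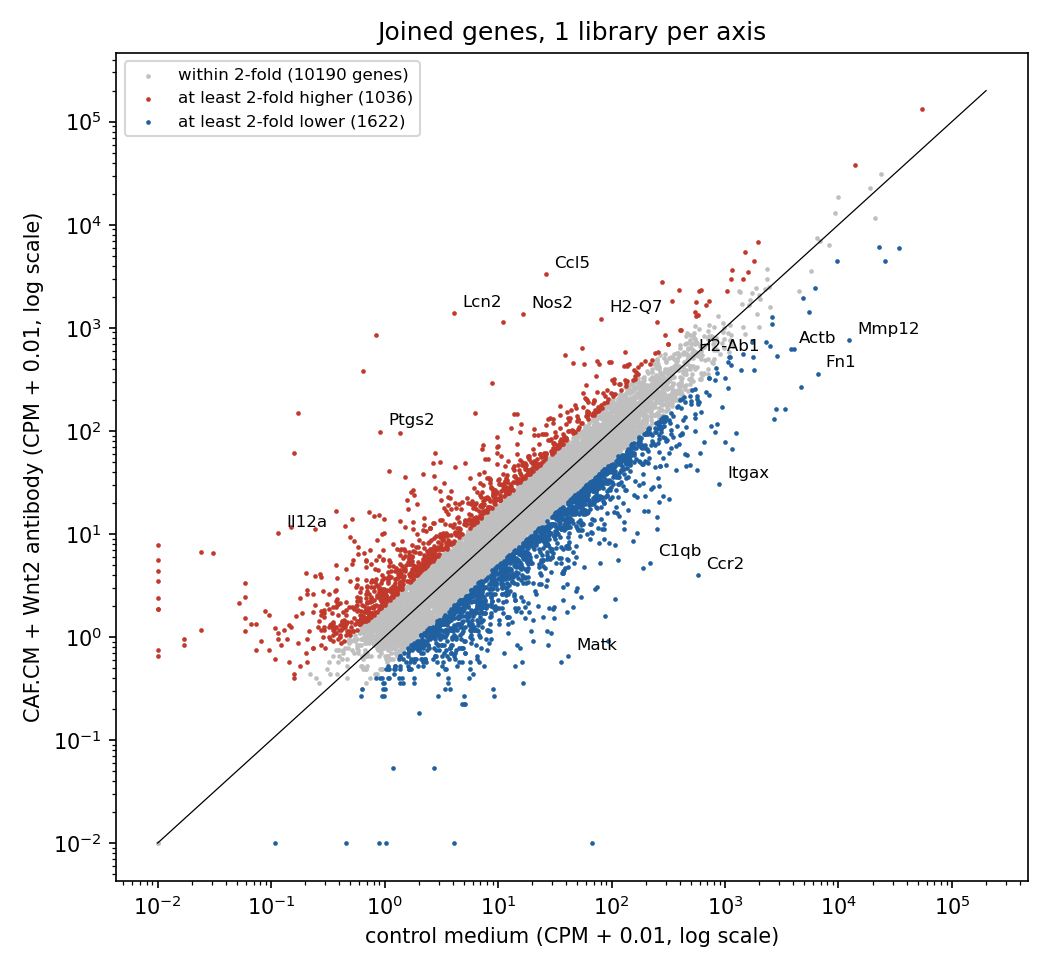
Every joined gene by its level in control medium (horizontal axis) and with CAF.CM plus Wnt2 antibody (vertical axis), both in CPM plus 0.01 on log scales, 1 library per axis and the line marks equal levels. Red points are the 1036 genes at least 2-fold higher and blue points the 1622 at least 2-fold lower, with Lcn2, Ccl5 and Nos2 far above the line and Ccr2, Itgax and Mmp12 far below it.

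The interferon-stimulated genes were higher than control in part. Of 30 members, all of them joined, 13 were higher with the antibody and 0 lower, with a median of 0.75. CAF.CM gave 22 and 0 (median 1.98), and Wnt2 gave 0 and 6 (median -0.22). Within 1.5-fold of control were 11 members with the antibody and 2 in CAF.CM. In a bulk library, fewer cells of a type and less RNA per cell cannot be told apart.

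Among the antiviral effectors, 10 of 17 were higher with the antibody. Rsad2, which encodes viperin, an enzyme that makes a chain-terminating nucleotide against viruses, measured 13.8 CPM in control medium, 6.85 with Wnt2, 177 in CAF.CM and 144 with the antibody. It stood 10.4-fold above control (log2 ratio 3.38, interval 3.30 to 3.46), next to 3.67 in CAF.CM. Bst2, which encodes tetherin, a protein that holds budding virus at the cell surface, measured 35.0 CPM in control medium, 28.8 with Wnt2, 163 in CAF.CM and 176 with the antibody. Both CAF.CM libraries lay far above control and Wnt2 for these 2 genes. Oasl1, an oligoadenylate synthetase-like gene, was at 2.87 with the antibody and 3.56 in CAF.CM.

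Other effectors lay between the control and CAF.CM levels or at control. Ifit2, which binds foreign RNA, measured 5.50 CPM in control medium, 2.30 with Wnt2, 62.3 in CAF.CM and 13.8 with the antibody, so it was still 2.50-fold above control while CAF.CM was 11.3-fold above. Ifit1 and Isg15 stood at 1.48 and 1.26 with the antibody against 3.19 and 2.00 in CAF.CM. Oas2, which makes the 2-5A second messenger, measured 2.70 CPM in control medium, 2.99 with Wnt2, 11.5 in CAF.CM and 2.93 with the antibody. The antibody ratio of Oas2 was 0.12 (interval -0.28 to 0.49), so no difference from control was detectable at this depth. Mx1, a dynamin-like antiviral GTPase gene, was at -0.23 with the antibody and 1.08 in CAF.CM, and Oas1a at -0.77 and 0.31.

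Of the 13 interferon regulators and sensors 3 were higher with the antibody, which were Irf7, Usp18 and Dhx58. Irf7, a transcription factor that amplifies type I interferon production, measured 9.73 CPM in control medium, 11.1 with Wnt2, 129 in CAF.CM and 87.5 with the antibody and had a log2 ratio of 3.17 (interval 3.07 to 3.27). The antibody library was 1.48-fold below CAF.CM for Irf7. Stat2 and Irf9, which encode parts of the type I complex, were at -0.29 and -0.16 with the antibody and 0.88 and 0.57 in CAF.CM.

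**Figure D2:**
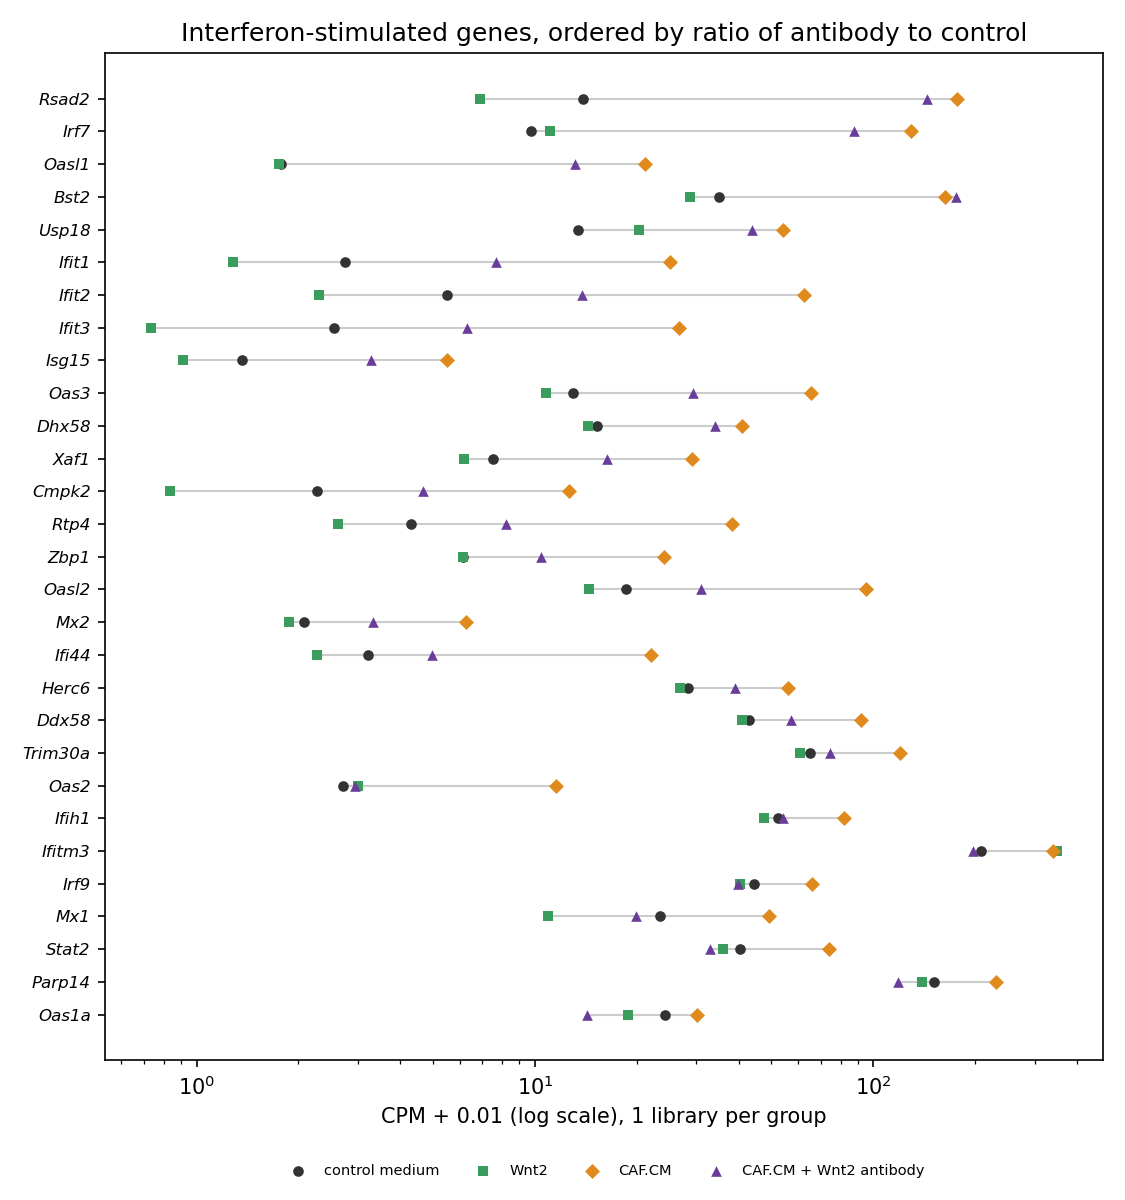
Interferon-stimulated genes, all but 1 of the list, in each of the 4 libraries, as CPM plus 0.01 on a log axis, 1 library per group, ordered from the highest to the lowest ratio of antibody to control. Rsad2, Irf7, Oasl1 and Bst2 at the top have purple antibody points nearer to the orange CAF.CM points than to the black control points, while from Rtp4 downward the antibody points lie within 2-fold of control.

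Interferon-gamma inducible GTPases and regulators were closer to control than the previous list. With the antibody 3 of 15 were higher and 2 lower (median 0.25), and 8 members lay within 1.5-fold of control. CAF.CM gave 11 and 1 (median 1.11), and 0 members lay within 1.5-fold. All 10 GTPases were higher in CAF.CM and 2 with the antibody, which were Gbp5 (2.44) and Iigp1 (2.71). Gbp3, a guanylate-binding protein gene, measured 19.8 CPM in control medium, 5.70 with Wnt2, 42.2 in CAF.CM and 19.6 with the antibody, and Irgm2, an immunity-related GTPase gene, 16.8, 15.2, 36.2 and 13.2 CPM in the same order. Their antibody ratios were -0.01 and -0.34, and their printed windows carry the ISRE-like motif, as those of Rsad2 and Bst2 do. The second Gbp3 window, not printed, does not carry it. Among the regulators Socs1 was higher (2.16), Irf1 and Nlrc5 were at 0.26 and 0.03, and Irf8 (-1.48) and Ciita (-4.01) were lower.

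MHC class I chains were higher with the antibody in 8 of 9 members, and the peptide supply genes in 3 of 12. Of all 21 members 11 were higher and 0 lower with the antibody (median 1.16), 10 and 0 in CAF.CM (median 0.98), and 0 and 0 with Wnt2 (median -0.25). B2m, the light chain shared by all class I molecules, measured 1508 CPM in control medium, 1155 with Wnt2, 5075 in CAF.CM and 5390.3 with the antibody (chr2:122147686-122153083, GENCODE M21 on GRCm38). Its log2 ratio was 1.84 (interval 1.83 to 1.85), next to 1.75 in CAF.CM. Tap1, a subunit of the transporter that carries peptides into the endoplasmic reticulum, measured 59.5 CPM in control medium, 51.1 with Wnt2, 257 in CAF.CM and 276 with the antibody. Both genes were high in the 2 libraries with CAF.CM and not in the other two.

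The classical chain genes H2-K1 and H2-D1 stood at 1.68 and 1.30. The nonclassical H2-Q7, H2-Q6, H2-T22 and H2-Q4 stood at 3.92, 3.52, 2.99 and 2.68, but share 37.0%, 49.8%, 50.5% and 37.5% of their 31-base words with other genes, so reads could go to either copy and the values are uncertain. The 3 higher genes of peptide supply were Tap1, the immunoproteasome subunit gene Psmb9 (1.63) and Tapbpl (1.16), while Psmb10 (-0.76) and Erap1 (-0.42) were below control within 2-fold.

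MHC class II genes were mixed. Of 13 joined members 2 were higher and 3 lower with the antibody (median -0.32), as in CAF.CM with 2 and 3 (median -0.24), while Wnt2 gave 0 and 7 (median -1.32). H2-Ab1 measured 489 CPM in control medium, 71.0 with Wnt2, 483 in CAF.CM and 521 with the antibody, so the Wnt2 library alone was low. Its log2 ratio with the antibody was 0.09 (interval 0.06 to 0.12). Ciita, the master regulator of class II transcription, measured 30.3 CPM in control medium, 4.21 with Wnt2, 6.11 in CAF.CM and 1.85 with the antibody and was 16.2-fold below control with the antibody. H2-Ab1 thus stood near control in the library where Ciita was lowest. The invariant chain gene Cd74 was lower (-1.19), as was H2-DMb2 (-2.13), of which 41.8% of the words are shared, and H2-Oa (2.42) and H2-Ob (2.05), which encode the inhibitor of peptide loading, were higher.

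Inflammatory mediators and acute phase genes held the highest ratios. Of 18 joined members 13 were higher and 2 lower with the antibody (median 2.30), next to 14 and 1 in CAF.CM (median 2.19) and 3 and 5 with Wnt2 (median 0.21). Lcn2, which encodes the iron-siderophore trap lipocalin-2 (chr2:32384633-32388252), measured 4.05 CPM in control medium, 6.72 with Wnt2, 1668 in CAF.CM and 1398 with the antibody. It was 343-fold above control (log2 ratio 8.42, interval 8.31 to 8.55) and the highest of the protein-coding genes with at least 200 reads over both libraries and 5 CPM in 1 of them. Nos2, the inducible nitric oxide synthase gene (chr11:78920787-78960254), measured 16.7 CPM in control medium, 30.3 with Wnt2, 751 in CAF.CM and 1362 with the antibody, and was 81.6-fold above control. Saa3, an acute phase serum amyloid gene, measured 279 CPM in control medium, 117 with Wnt2, 2326 in CAF.CM and 2794 with the antibody. All 3 were high in both libraries with CAF.CM, and with Wnt2 none of the 3 was higher.

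The prostaglandin genes were among them. Ptgs2, which encodes cyclooxygenase-2 (chr1:150100031-150108227), measured 0.897 CPM in control medium, 9.39 with Wnt2, 35.7 in CAF.CM and 98.3 with the antibody, so the antibody library was the highest of the 4. Its log2 ratio was 6.74 (interval 6.52 to 7.04) against control and 1.46 (interval 1.35 to 1.57) against CAF.CM. Ptges, the next enzyme towards prostaglandin E2, stood at 3.31. Orm1 (6.09), an acute phase glycoprotein gene, and Hamp (5.45), the hepcidin gene, were also high, with 27.5% and 33.7% of their words shared with other genes. Arg1, the arginase-1 gene, was lower (-1.96), and Acod1, the itaconate synthase gene, was at -0.33 with the antibody and 1.38 in CAF.CM.

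Cytokine and chemokine genes went both ways. Of 22 joined members 10 were higher and 3 lower with the antibody (median 0.62), 9 and 4 in CAF.CM (median 0.50) and 6 and 0 with Wnt2 (median 0.31), and Il10, Il23a, Csf3, Ccl7 and Cxcl10 were listed in no table. Ccl5, a chemokine for T cells (chr11:83525778-83530518), measured 26.5 CPM in control medium, 30.4 with Wnt2, 2746 in CAF.CM and 3289 with the antibody, and was 124-fold above control. Cxcl1, a neutrophil chemokine (chr5:90891241-90893115), measured 2.75 CPM in control medium, 9.12 with Wnt2, 15.4 in CAF.CM and 61.2 with the antibody. The antibody library was the highest for Cxcl1, at 4.46 against control (interval 4.31 to 4.64) and 1.98 against CAF.CM (interval 1.83 to 2.15). Cxcl2, of the same family, was at 1.52 with the antibody and 0.34 in CAF.CM, but at 1.78 with Wnt2.

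Of the 10 joined cytokines 5 were higher and 0 lower with the antibody. Il6 measured 1.72 CPM in control medium, 2.49 with Wnt2, 22.7 in CAF.CM and 25.5 with the antibody, and Il1b measured 7.18, 35.3, 62.7 and 66.8 CPM in the same order. Their ratios to control were 3.87 and 3.21, and to CAF.CM 0.17 (interval 0.00 to 0.34) and 0.09 (interval -0.01 to 0.19), which is within or at the edge of counting error. Lif (3.20), Osm (2.48) and Il1a (2.26) completed the 5, and Tnf stood at -0.72. The 3 lower members were chemokine genes. Ccl6 measured 2698 CPM in control medium, 2641 with Wnt2, 339.8 in CAF.CM and 130.1 with the antibody, Ccl9 stood at -4.12 and Ccl4 at -1.01.

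NF-kappaB inhibitors and subunits moved less. Of 12 members 3 were higher, which were the inhibitor genes Nfkbia (1.65), Nfkbib (1.56) and Tnfaip3 (1.25), and 0 were lower (median 0.28, against 0.43 in CAF.CM). The 5 subunit genes all lay within 2-fold of control.

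Among 22 joined maturation and costimulation genes 6 were higher and 2 lower with the antibody (median 0.64), next to 8 and 0 in CAF.CM (median 0.81). Il12a, which encodes the p35 chain of IL-12, was at 0.106 CPM in control medium, 6.26 in CAF.CM and 10.2 with the antibody, and the Wnt2 table does not list it. Its log2 ratio was 6.29 with a wide interval of 5.83 to 7.44, from a control level of few reads. Cd274, which encodes the inhibitory ligand PD-L1 (chr19:29367455-29388095), measured 250.1 CPM in control medium, 397 with Wnt2, 863 in CAF.CM and 1134 with the antibody, and was 4.53-fold above control. Cd40 (1.87) and Il12b (2.88) were higher. The costimulatory genes Cd80 (0.82) and Cd86 (-0.59) and the lymph node homing receptor gene Ccr7 (-0.38) were within 2-fold, and Icam1 (-1.26) and Pdcd1lg2 (-1.29), the PD-L2 gene, were lower.

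**Figure D3:**
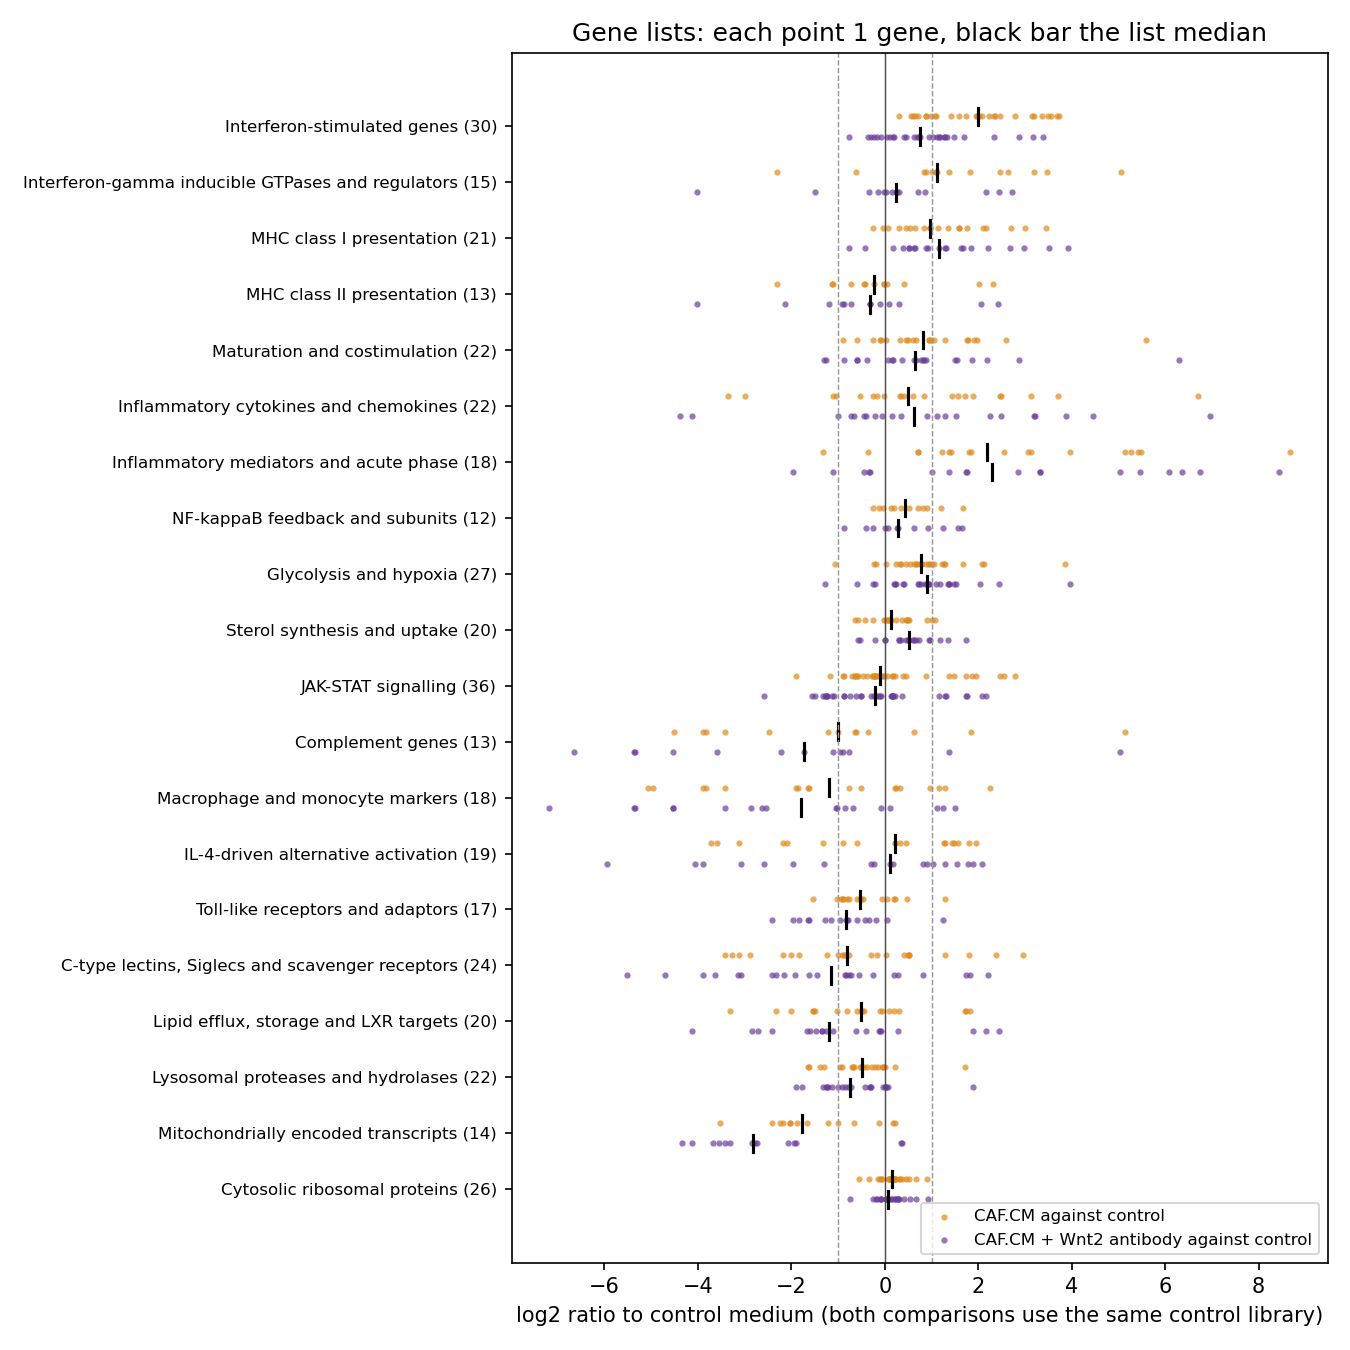
Log2 ratios of 20 gene lists against the control library, for CAF.CM (orange) and CAF.CM plus Wnt2 antibody (purple), with 1 point per joined gene, the black bar at the list median, dashed lines at 2-fold and list sizes in brackets. The interferon-stimulated median is 1.98 in orange and 0.75 in purple, the MHC class I and inflammatory mediator medians lie close together, and the complement and mitochondrially encoded medians lie further left in purple.

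Over 36 JAK-STAT members 7 were higher and 10 lower with the antibody (median -0.20), next to 8 and 2 in CAF.CM (median -0.11). Socs3, a feedback inhibitor induced by STAT3, measured 13.8 CPM in control medium, 40.2 with Wnt2, 94.9 in CAF.CM and 45.9 with the antibody. It was 3.33-fold above control with the antibody, 6.88-fold in CAF.CM and at a log2 ratio of 1.54 with Wnt2, so the antibody library was close to the Wnt2 library. Of the 11 feedback inhibitors 3 were higher, Socs1 (2.16), Cish (2.07) and Socs3, and 3 lower, Socs6 (-1.57), Ptpn6 (-1.27) and Socs5 (-1.14). Of the 11 kinases and STATs 2 were higher, Jak2 (1.30) among them, and Stat6 was lower (-1.08), while Stat3 was at 0.16. Of the 14 receptor genes 6 were lower, among them Csf2ra (-2.58), the alpha chain of the GM-CSF receptor, Ifngr1 (-1.31), a chain of the interferon-gamma receptor, and Il10ra (-1.23), and 2 were higher, Lepr (1.76) and the type I interferon receptor gene Ifnar2 (1.15).

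Of 21 joined Wnt receptor and beta-catenin genes 0 were higher and 4 lower with the antibody (median -0.28), and 12 lay within 1.5-fold of control, next to 1 and 2 in CAF.CM and 0 and 0 with Wnt2. Over all joined genes 8.06% were higher with the antibody, 12.6% lower and 58.7% within 1.5-fold of control. The list was thus close to all genes in its share within 1.5-fold. Fzd1, a Wnt receptor gene, measured 27.0 CPM in control medium, 48.7 with Wnt2, 5.72 in CAF.CM and 3.58 with the antibody, and Ctnnb1, the beta-catenin gene, stood at -0.28. The Wnt2 library held the highest Fzd1 level and the 2 libraries with CAF.CM the lowest. Of 20 canonical Wnt targets 8 were joined, with Fosl1 (2.99) and Rnf43 (1.53) higher and Myc (-2.59) and Znrf3 (-1.67) lower, and Axin2, a widely used readout, was listed in no table.

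Macrophage and monocyte markers were lower in most members. With the antibody 11 of 18 were lower and 3 higher (median -1.79), next to 9 and 3 in CAF.CM (median -1.20) and 6 and 3 with Wnt2 (median -0.59). Their summed level was 30701 CPM in control medium, 23378 with Wnt2, 12135 in CAF.CM and 9043 with the antibody. Most of the control sum was Lyz2, so the sums do not weigh the 18 markers evenly. Ccr2, the receptor that draws monocytes out of the marrow (chr9:124101950-124113557), measured 580.4 CPM in control medium, 315 with Wnt2, 18.8 in CAF.CM and 3.96 with the antibody. It was 146-fold below control (log2 ratio -7.18, interval -7.50 to -6.90), the lowest of the genes that met the same minimum, and 4.66-fold below CAF.CM. Cd14 (1.24), Fcgr3 (1.12) and Ly6c2 (1.51) were higher, and Adgre1, which encodes the macrophage marker F4/80, was at -0.08.

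Complement genes were low as well. Of 13 joined members 8 were lower and 2 higher with the antibody (median -1.73), next to 7 and 2 in CAF.CM (median -1.01). The genes of the C1q trimer, which starts the classical pathway, were lower together, at -5.36, -5.34 and -4.53 for C1qb, C1qc and C1qa. C1qb measured 217 CPM in control medium, 58.0 with Wnt2, 14.7 in CAF.CM and 5.26 with the antibody. Wnt2, CAF.CM and the antibody library were all below control for C1qb, the antibody library most. C3, the central component, was higher at 1.38, and Cfb at 5.04, although 81.5% of the words of Cfb are shared with other genes and its value is uncertain. The anaphylatoxin receptor genes C5ar1 (-3.58) and C3ar1 (-1.73) were lower.

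Conventional dendritic cell markers were lower in 5 of 14 joined members and higher in 2 with the antibody (median -0.65), next to 4 and 2 in CAF.CM (median -0.40). Itgax (chr7:128129547-128150657) measured 888 CPM in control medium, 223 with Wnt2, 47.7 in CAF.CM and 30.3 with the antibody, which is 29.3-fold below control with the antibody. Irf8 (-1.48) and the signal regulatory protein gene Sirpa (-1.64) were lower, while Zbtb46, a transcription factor gene of the conventional lineage, was at 0.43, Irf4 at 0.44 and Cd24a higher at 1.71. The markers of the label therefore did not go one way. Fibroblast markers summed to 12.0 CPM in control medium, 41.1 in CAF.CM and 66.8 with the antibody over 5 joined genes. Of these Dcn (4.71) and Col5a1 (3.26) were higher and Thy1 was lower (-1.59). Of the 14 fibroblast markers 6 were listed in no table, Col1a1 among them, while Postn, Col1a2 and Col3a1 were listed outside the join. Neutrophil markers were lower in 4 of 6, with Mmp8 at -2.45 and Csf3r at -3.03, while S100a9 and Ly6g were listed in no table. The part that shifts in cell types have in the other lists was not tested.

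Pattern recognition receptors were lower in many members. Of 24 joined C-type lectins, Siglecs and scavenger receptors 12 were lower and 3 higher with the antibody (median -1.14), next to 8 and 4 in CAF.CM (median -0.82). Clec12a, an inhibitory lectin gene, measured 107 CPM in control medium, 2.92 with Wnt2, 11.1 in CAF.CM and 2.33 with the antibody, so it was low in Wnt2, CAF.CM and antibody libraries alike. The mannose receptor gene Mrc1 was at -3.90 and the beta-glucan receptor gene Clec7a at -3.07. Clec4e, which encodes the sensor Mincle, was higher at 2.21. Siglec1, the sialoadhesin gene, measured 17.2 CPM in control medium, 12.0 with Wnt2, 24.3 in CAF.CM and 3.83 with the antibody, so the antibody library was the lowest of the 4. Toll-like receptors and adaptors were lower in 7 of 17 and higher in 1 (median -0.82), with Tlr13 at -2.40, Tlr8 at -1.96, Tlr2 at -1.84 and Tlr7 at -1.65, and Cd14 was the higher one. In CAF.CM the counts were 2 lower and 1 higher (median -0.52).

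Of 25 joined matrix and adhesion genes 13 were lower and 2 higher with the antibody (median -1.03), next to 12 and 2 in CAF.CM (median -0.67). Fn1, the fibronectin gene (chr1:71585520-71653200), measured 6538 CPM in control medium, 7003 with Wnt2, 785 in CAF.CM and 359.5 with the antibody, and Mmp12, the macrophage elastase gene (chr9:7344381-7369499), measured 12343, 6034, 1053 and 757 CPM in the same order. Both were abundant in control medium and more than 15-fold lower with the antibody, at 18.2-fold and 16.3-fold. Mmp9 (-3.70) and Mmp13 (-3.61) were lower, and Timp1, a metalloproteinase inhibitor gene, was higher (2.81). Genes of lipid efflux and storage were lower in 11 of 20 and higher in 3 (median -1.18), next to 7 and 3 in CAF.CM (median -0.50). Apoe, which carries cholesterol out of macrophages, measured 4647 CPM in control medium, 4862 with Wnt2, 471 in CAF.CM and 265 with the antibody, and the lipoprotein lipase gene Lpl stood at -2.72, while the desaturase genes Scd1 (2.44) and Scd2 (2.17) and the lysosomal cholesterol carrier gene Npc2 (1.89) were higher.

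**Figure D4:**
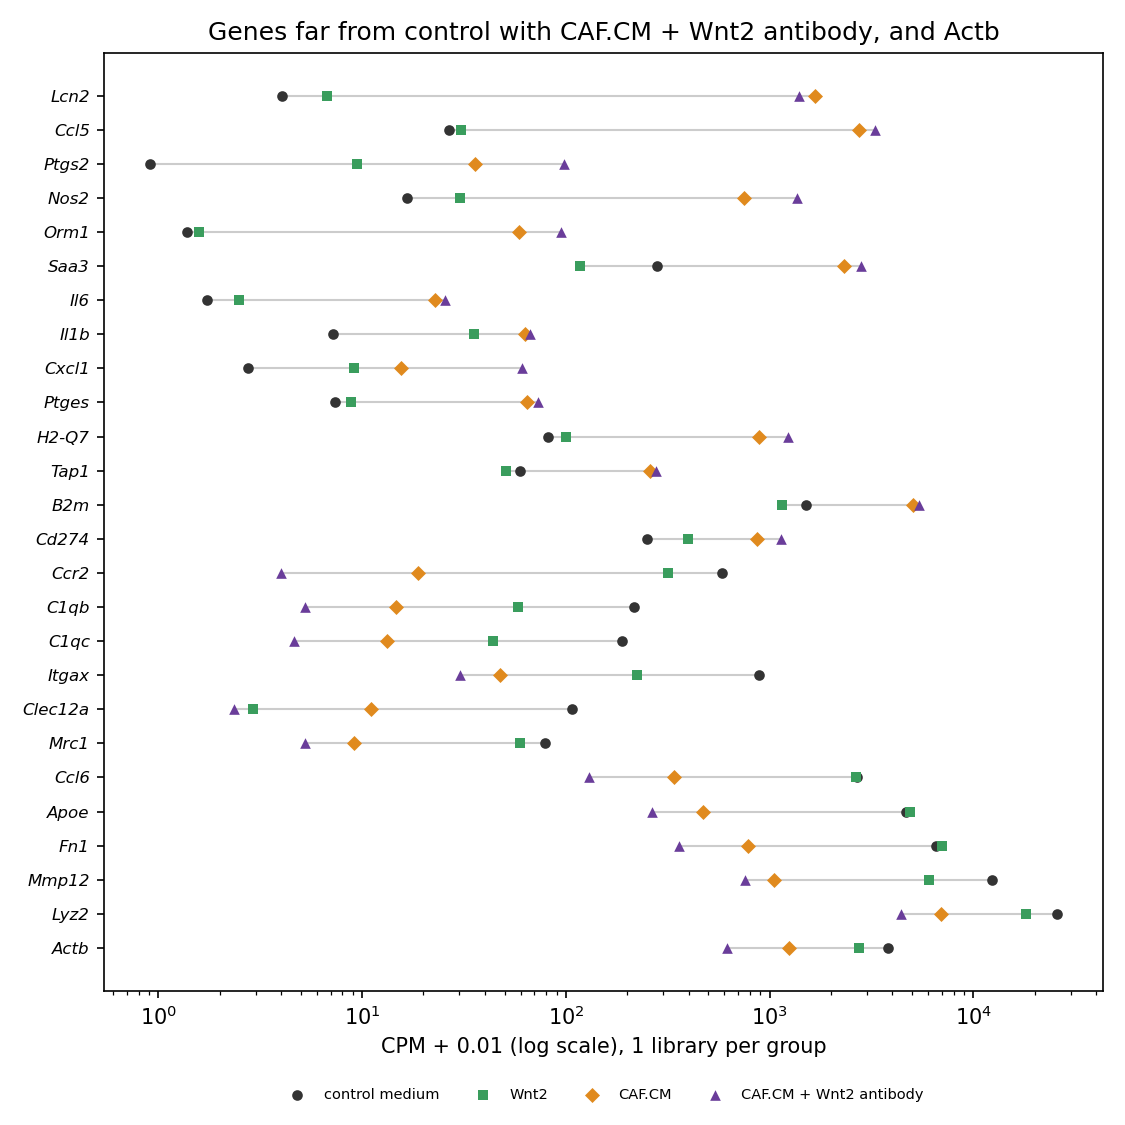
Levels of 26 genes far from control in each of the 4 libraries, as CPM plus 0.01 on a log axis, 1 library per group, chosen after their values were seen. From Lcn2 to Cd274 the orange CAF.CM and purple antibody points lie to the right of the black control points, and from Ccr2 to Actb they lie to the left, with the antibody point the furthest left.

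Genes tied to IL-4, which was in the culture, went both ways. Of 19 joined members 6 were higher and 7 lower with the antibody (median 0.11), next to 7 and 6 in CAF.CM (median 0.22). Chil3, the chitinase-like gene Ym1, measured 1971 CPM in control medium, 2712 with Wnt2, 6903 in CAF.CM and 6780.1 with the antibody, while Egr2 (-4.06) and Matk (-5.94) were lower. Of 22 lysosomal genes 8 were lower and 1 higher (median -0.75), with the protease genes Ctsl at -1.91 and Ctsb at -1.32.

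Some metabolic genes were higher. Of 27 joined glycolysis and hypoxia genes 10 were higher and 1 lower with the antibody (median 0.90), next to 9 and 1 in CAF.CM (median 0.78) and 4 and 0 with Wnt2 (median 0.55). Vegfa, the angiogenic growth factor gene, measured 1134 CPM in control medium, 2192 with Wnt2, 2655 in CAF.CM and 2957 with the antibody, and Ero1l, an oxidase of the endoplasmic reticulum, stood at 2.44. Vegfa was thus above control in all 3 treated libraries. Of 20 sterol synthesis genes 3 were higher and 0 lower (median 0.51, against 0.13 in CAF.CM), with the squalene epoxidase gene Sqle at 1.36 and the isomerase gene Idi1 at 1.17. Over all joined genes 8.06% were higher and 12.6% lower, and 3 genes are too few to read as a result about the sterol list. In the integrated stress response list 3 of 17 joined members were higher and 6 lower (median -0.53). Ddit4 (4.55) was high in all 3 treated libraries, Asns (-3.06) and Psat1 (-3.17), which serve amino acid synthesis, were low, and Gdf15, a stress cytokine gene, measured 7.10 CPM in control medium, 5.53 with Wnt2, 6.76 in CAF.CM and 22.8 with the antibody.

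Cytosolic ribosomal protein genes had 0 of 26 called in either direction (median 0.07), and nuclear-encoded respiratory chain genes 0 of 25 (median 0.25). Cell division genes had 6 of 22 joined members higher and 1 lower (median 0.32). Of 16 reference genes 3 were higher, B2m and Pgk1 among them, 1 was lower, Actb, and 8 lay within 1.5-fold of control. Actb, the beta-actin gene often used to normalise, measured 3789 CPM in control medium, 2757 with Wnt2, 1244 in CAF.CM and 618 with the antibody, and was 6.13-fold below control with the antibody, with 35.1% of its words shared with other genes.

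Other genes taken by the naming rule stood far from control, all but Clec4b1 in no list. Above it stood Susd2 (6.14), the pantetheinase gene Vnn3 (5.22), Ly6i (4.55) and Fam71f2 (4.47), which stood at 6.29, 4.16, 4.96 and 3.12 in CAF.CM. Below it stood the intermediate filament gene Nes (-5.95), the inflammasome sensor gene Nlrp1b (-5.03), C5ar2 (-5.02), Zfyve28 (-4.80), Slc9a9 (-4.80), Fcrls (-4.74), Clec4b1 (-4.70) and the phosphodiesterase gene Pde1c (-4.63). In CAF.CM these 8 were at -4.94, -2.57, -3.06, -2.54, -2.99, -4.60, -2.89 and -3.85. The rule took them for their low antibody ratios, which favours a lower value there than in CAF.CM. For Fcrls the ratio of antibody to CAF.CM was -0.13 (interval -0.96 to 0.66), which is within counting error.

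Among the 9402 genes that met the same minimum of reads and CPM, 48 were higher and 155 lower with the antibody while CAF.CM lay within 1.5-fold of control. The naming rule took Cd24a (1.71 with the antibody, 0.31 in CAF.CM), Gdf15 (1.68 and -0.07), Cxcl2 (1.52 and 0.34) and the mRNA export gene Nxt1 (1.51 and 0.44) as the first of the higher ones. Siglec1 (-2.16 and 0.49), the kinase gene Camk2b (-2.26 and -0.51), the leukotriene B4 receptor gene Ltb4r1 (-1.65 and -0.51) and the integrin gene Itga1 (-1.62 and -0.48) were among the lower ones. Gemin4 was the lowest of these at -2.54, but 94.7% of its words are shared with other genes. In the other direction, 228 of the 9402 genes were at least 4-fold from control in CAF.CM. Of these 228, C1s1 was the 1 gene within 1.5-fold of control with the antibody. Oas2 (2.08 in CAF.CM and 0.12 with the antibody) and the GTPase gene Tgtp1 (2.64 and -0.14), of which a near-identical copy exists, also met these ratios at levels below that minimum. The minimum is set on the control and antibody libraries, so it drops genes low in both, whatever their CAF.CM level. A gene raised in CAF.CM from a low control level and back there with the antibody was thus left out in advance. The count of 1 therefore does not measure how many genes returned. C1s1, which encodes a C1s protease of complement, measured 17.8 CPM in control medium, 12.0 with Wnt2, 79.3 in CAF.CM and 24.3 with the antibody, with 36.5% of its words shared.

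The make-up of the libraries moved with these results. Of the reads in joined genes, 81.2% were protein-coding in control medium, 75.8% in CAF.CM and 72.4% with the antibody. Malat1, an RNA that stays in the nucleus, took 1.38%, 2.85% and 3.86% in the same order. Among joined processed pseudogenes 66 of 148 were higher and 8 lower with the antibody (median 0.82), and 25 small nuclear RNAs had a median of 0.91, while 11205 protein-coding genes had a median of -0.10. The 148 pseudogenes together held 0.0239% of the control reads. At low level the join keeps genes that reached about 1 CPM in CAF.CM and drops genes under it in both CAF.CM libraries. That favours higher ratios, and its part in the pseudogene counts was not tested. The 12 joined mitochondrial protein-coding transcripts were all lower, between -4.34 and -1.90 (median -3.08), and summed to 27213 CPM in control medium, 25192 with Wnt2, 11188 in CAF.CM and 6633 with the antibody. The 2 mitochondrial ribosomal RNAs stood at 0.36 and 0.37. The part of RNA make-up in the ratios of single genes was not tested, and that of depth cannot be told apart from CAF.CM. With protein-coding genes split into 4 bins by transcript length or GC content, bin medians lay between -0.17 and 0.01. From the shortest to the longest transcripts the bins held 273, 194, 135 and 142 higher genes, and the shortest held 330 lower genes and the longest 376.

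The join left out genes at low level. The CAF.CM table held 481 genes that the antibody table does not, all under 1 CPM in CAF.CM and at or over 1 CPM in control medium, and 136 of them were at 2 CPM or more in control medium. Each table lists genes that reached about 1 CPM in 1 of its libraries, so lower genes are undercounted. Among them were Mamdc2 (42.0 CPM in control medium, 0.768 in CAF.CM), Galnt9 (18.9 and 0.307) and the eosinophil lectin gene Siglecf (11.4 and 0.192). By this listing rule their levels with the antibody were under about 1 CPM and so below control, but the ratios themselves are not known here.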

How the data were processed

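Per the labels' protocols, 1 ug of total RNA per sample was freed of ribosomal RNA before a stranded Illumina preparation. The submitters' processing notes list STAR 2.4.2a, RSEM 1.2.29, edgeR, GRCm38.p5 and mm10, and no settings were at hand. The deposited library columns hold normalized CPM with 3 decimals. The log2 fold changes in the authors' deposited tables served only as an alternative, and their deposited p-values were not used, since the spread behind them is not stated.

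Values of each library were whole multiples of 1 step. Of values up to 20 CPM, 100% were whole within 0.1 step in each library, and reads were recovered from these steps. The ratios are differences of edgeR log2 CPM (version 4.0.16, R 4.3.3, prior count 2, library sizes from the deposited scaling). The calculation of the ratios was tested on simulated data. No count test was run, because 1 library per group leaves no estimate of spread. Python 3.11.15 was used with scipy 1.17.1 for the 95% intervals and with matplotlib 3.10.9, pandas 2.3.3 and numpy 2.4.6 otherwise.

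The genes, gene lists and rules were chosen with earlier results of these data known. The rule for named genes took 15 protein-coding genes at each end of the ratios with at least 200 reads over both libraries and 5 CPM in 1, up to 4 per list by size of ratio, genes 4-fold from control in CAF.CM and within 1.5-fold with the antibody, up to 10 per direction called with the antibody and within 1.5-fold in CAF.CM, and 23 fixed genes. Other list members named, the printed promoters and the genes plotted by library were chosen after their values were seen. Some genes taken by the rule are left unreported. Shared sequence gives how many percent of a transcript's 31-base words other genes also hold, from GENCODE M21, which gave gene positions too. The strand setting of the authors' counting is not given here, so overlapping genes are uncertain. Alternatives were DESeq2 1.42.0 size factors, TMM factors, total reads, a minimum of 100 reads, prior counts of 0.5 and 5, a 1.5-fold threshold, only protein-coding genes, sums of deposited log2 fold changes, intervals wholly beyond 2-fold, and control values taken also from the Wnt2 table.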

Additional observations from a re-analysis of the deposited data

Results flagged for a closer look

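Outside the joined genes, 34 genes of the antibody table have a control value in the Wnt2 table. Of these, 8 were at least 2-fold higher with CAF.CM plus antibody than in control medium and 0 lower, with no replicate behind either value. Such genes were under about 1 CPM in control medium and in CAF.CM, and were listed because the antibody library reached about 1 CPM. The listing thus fixed the direction in advance, and the counts are no evidence of a response. Gja1, which encodes the gap junction protein connexin 43, was at 0.36 CPM in control medium, 1.02 with Wnt2, 0.653 in CAF.CM and 1.38 with the antibody (log2 ratio 1.87). Zfp473, a zinc finger gene, stood at 1.16, and the other 6 were noncoding genes or pseudogenes between 1.16 and 1.59. For another 190 genes of the antibody table the control level is not known here.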

How the results depend on the processing

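No paired analysis was possible because each group has 1 library. The median log2 ratio of -0.06 over all joined genes moved to 0.0001 with DESeq2 size factors, -0.0042 with TMM factors, -0.0228 with total reads and -0.0978 among protein-coding genes. The first 3 shift every ratio by 0.0633, 0.0586 and 0.04. At a 1.5-fold threshold 2228 genes were higher and 3079 lower, in place of 1036 and 1622. The other 24 values of these counts and the median stayed within 1.5 times or close to the main value. With intervals wholly beyond 2-fold there were 701 higher and 1120 lower genes, and with at least 100 reads 849 and 1618. For single genes and lists 1523 alternative values stayed close, 99 moved, and none changed sign after being called. Depth limits low genes of the antibody library, where 1 read is 0.0431 CPM, and no replicate spread is known.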
